A study of Mus musculus with 2 samples.

Results

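The genes described here are 10 genes of the Lin28, Trim71 and let-7 pathway, measured in epiblast stem cells of the mouse (EpiSC), which are pluripotent and resemble the epiblast after implantation. They were chosen by gene name from the annotation of the array, with every probe kept, and make up 10 of the 22753 genes that the array names. Of the 10, 9 stand on the array under the name used here. Lin28a stands there as Lin28 and was matched by its RefSeq accession, while Zcchc11 is called Tut4 in RefSeq today. Together they are read by 18 probes, of which 7 genes have several and 3 genes (Lin28a, Igf2bp1 and Igf2bp3) have 1. The members were chosen by name, but with earlier results of these data known.

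The study hybridised RNA of 2 EpiSC clones, EpiSC clone 1 and EpiSC clone 2, to 1 array each. Both clones are wildtype and female on a C57BL/6 background and were collected with trypsin at passage 9, per the labels, which name no treatment that sets them apart. Each group is thus a single line measured once, and no other cell type was measured beside them. With 1 array per clone a difference between clones has no replicate check, so no p-value is given.

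Lin28a and Lin28b are RNA-binding proteins that block the maturation of the let-7 microRNAs. They bind the loop of the let-7 precursor. Lin28a recruits the uridylyl transferase Zcchc11, which adds a tail of uridines, and the exonuclease Dis3l2 degrades the tailed RNA. Mature let-7 in turn represses mRNAs with sites for its seed, among them Lin28a, Lin28b, Trim71, Hmga2 and the Igf2bp genes, so that Lin28 and let-7 oppose each other. Pluripotent cells are known for high Lin28 and little mature let-7.

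The sequences below show what the let-7 family shares, because the seed defines the targets. In RefSeq (GRCm38.p6) 11 mature mouse microRNAs carry the seed GAGGUAG at bases 2 to 8, and 8 of the let-7 5p forms and miR-98 are written here 5′ to 3′ with the seed in capitals.
let-7a-5p: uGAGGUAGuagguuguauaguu
let-7b-5p: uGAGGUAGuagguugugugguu
let-7c-5p: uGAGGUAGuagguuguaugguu
let-7d-5p: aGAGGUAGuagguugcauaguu
let-7e-5p: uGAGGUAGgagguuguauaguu
let-7f-5p: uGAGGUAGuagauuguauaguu
let-7g-5p: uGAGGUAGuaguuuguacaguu
let-7i-5p: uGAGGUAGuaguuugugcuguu
miR-98-5p: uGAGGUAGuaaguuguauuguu
The microRNAs themselves were not analysed here, since 0 of the 39429 probes carry a let-7 name.

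Lin28 proteins are known to grip a GGAG motif in the loop of let-7 precursors. The letters GGAG were found past the midpoint of 9 of the 11 Mirlet7 hairpins in RefSeq, against 18.9% of 994 other mouse hairpins. The complementary letters CUCC were found there in 3 of the 11 and in 27% of the others. A hairpin with the motif (capitals) and one without it show the difference. Mirlet7g lies on the plus strand at chr9:106178840-106178927 and Mirlet7c-2 on the plus strand at chr15:85706603-85706697, both in GRCm38.p6.
Mirlet7g: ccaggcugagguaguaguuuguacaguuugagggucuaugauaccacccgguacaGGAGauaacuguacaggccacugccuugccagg
Mirlet7c-2: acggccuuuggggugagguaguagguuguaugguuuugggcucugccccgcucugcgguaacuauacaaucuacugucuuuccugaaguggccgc

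A let-7 target site is the reverse complement of the seed, CTACCTC. Among the 18 probes of the 10 genes 1 holds these letters, the brighter probe of Hmga2, at bases 45 to 51 of its 60 bases. Pairing with let-7a runs on for 10 bases in a row from base 2. These 30 bases of the probe, with the site in capitals, come from the array's annotation.
Hmga2: tgtacaatcaaaacacactaCTACCTCtta
Over the whole array 0.38% of probes hold the same letters and 0.198% hold them on the other strand, which none of the 18 does. The match describes the probe and says nothing of whether the site was bound.

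Levels are given as the log2 of the processed spot signal relative to the 75th percentile of all probes on the array, so 0 is the level of that percentile. The ± beside a level is the error that the scanner software gives for reading the spot, between 0.14 and 0.19 log2 for these probes, and it holds no spread between cultures. A gene counts as detected when the software flags one of its probes as well above background. Differences are clone 2 minus clone 1 on the log2 scale, and levels of different probes are not compared with each other. Spots of the same probe printed 10 times on an array had a median SD of 0.07 log2 for clone 1 and 0.08 for clone 2, which gives 0.11 for a difference between 2 single spots.

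All 10 genes were detected in both clones, against 61.3% of all genes on the array, and so was each of the 18 probes. Their signals lay between 11.9 and 23874 times the median negative control of the array. No spot was saturated or carried an outlier flag. None of the 10 differed by 2-fold between the clones, where 2.56% of the 13928 genes measured on both arrays did, and all 10 lay within 1.5-fold, as did 90.9% of all measured genes. A count of 0 among 10 genes is near what that background gives. By the brightest probe of each gene the median difference was 0.05 log2, next to 0.05 for all measured genes. Of the 10 genes 6 were higher in clone 2 and 4 in clone 1, where 56.9% of all measured genes were higher in clone 2, and this split was 5 to 5 with quantile normalization or the authors' deposited table and 3 to 7 with normexp background correction. The median size of a difference, whatever its direction, was 0.23 for the 10 genes and 0.19 for all measured genes.

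**Figure D1:**
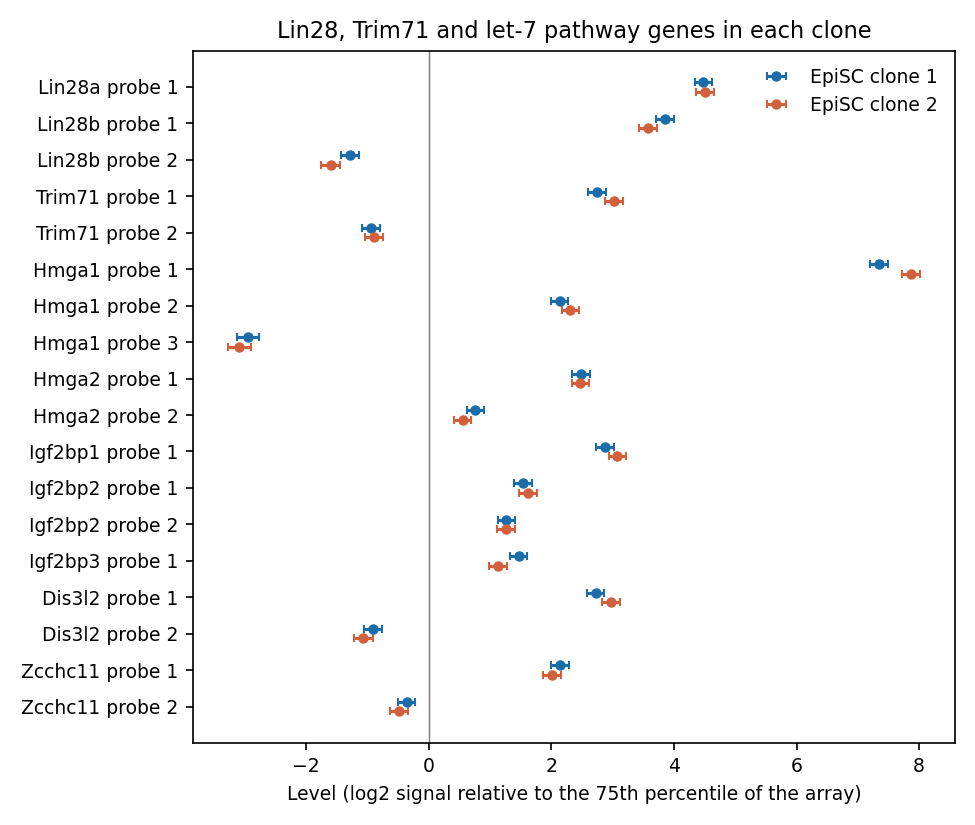
Level of each of the 18 probes in EpiSC clone 1 (blue) and clone 2 (orange), as log2 signal set against the 75th percentile, with bars for the scanner software's error of 1 spot and n = 1 array per clone. The points of the clones lie close together at every probe, the farthest apart being probe 1 of Hmga1, with 7.34 and 7.87.

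Lin28a and Lin28b, the inhibitors of let-7 maturation, were both present. Lin28a, the form typical of pluripotent cells, had a level of 4.48 ± 0.14 in clone 1 and 4.51 ± 0.14 in clone 2. Its probe lies on the minus strand of chromosome 4 from 133559245 to 133559304 in mm9, and its difference was 0.03 ± 0.20. The clones were level here, and the sign turned with the authors' deposited table (-0.12), quantile normalization (-0.11) and normexp correction (-0.06). Lin28b, the second vertebrate Lin28 gene, had 3.86 ± 0.14 and 3.57 ± 0.14 by its brighter probe (minus strand of chromosome 10, 45096468 to 45096527). That is a difference of -0.28 ± 0.20, or 1.22-fold higher in clone 1.

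The other Lin28b probe lies from 45140412 to 45140471, upstream in the gene, and gave -1.29 ± 0.15 in clone 1 and -1.60 ± 0.15 in clone 2. Its difference of -0.31 ± 0.21 had the same direction and nearly the same size. Both Lin28b differences were more than 2 times the noise between single spots and less than 2 times the software's error. With normexp correction the dimmer probe came to 0.03 while the brighter kept -0.31. The brighter had -0.41 in the authors' deposited table and -0.40 after quantile normalization.

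Zcchc11 and Dis3l2, which tail and degrade the let-7 precursor that Lin28a holds, were read by 2 probes each. By its brighter probe Zcchc11 had 2.14 ± 0.14 in clone 1 and 2.01 ± 0.14 in clone 2. That probe lies on the plus strand of chromosome 4 from 108151673 to 108151732. The other, from 108231961 to 108232020, gave -0.36 ± 0.15 and -0.48 ± 0.15. The differences of -0.13 ± 0.20 and -0.12 ± 0.21 lie inside the software's error. With normexp correction they were -0.33 and 0.06, so the second probe turned sign.

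Dis3l2 had 2.72 ± 0.14 in clone 1 and 2.97 ± 0.14 in clone 2 by its brighter probe (plus strand of chromosome 1, 88946605 to 88946664), a difference of 0.25 ± 0.20. Its other probe, from 88945422 to 88945481, gave -0.91 ± 0.15 and -1.07 ± 0.15, a difference of -0.16 ± 0.21. The probes of Dis3l2 thus point in opposite directions, and no direction is read for the gene.

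Trim71 (Lin41), an RNA-binding protein with a RING domain that was among the earliest let-7 targets described in the nematode, was present in both clones. Its brighter probe, on the minus strand of chromosome 9 from 114420415 to 114420474, read 2.75 ± 0.14 in clone 1 and 3.02 ± 0.14 in clone 2. The difference was 0.27 ± 0.20, or 1.21-fold higher in clone 2. The other probe, from 114421669 to 114421728, read -0.95 ± 0.15 and -0.89 ± 0.15, a difference of 0.05 ± 0.21 within the noise between spots. Both differences were positive under each processing tried, between 0.05 and 0.33.

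Hmga1 and Hmga2 are architectural chromatin proteins that bind AT-rich DNA, and Hmga2 is a classic let-7 target with several sites in its mRNA. The brightest Hmga1 probe lies on the plus strand of chromosome 17 from 27700543 to 27700602 and read 7.34 ± 0.14 in clone 1 and 7.87 ± 0.14 in clone 2, a difference of 0.53 ± 0.20 or 1.44-fold higher in clone 2. It is the 1 probe of 18 whose difference exceeded 2 times the software's error. The share of all measured genes past that mark was not counted. The difference of 0.53 lies within the 5th to 95th percentile of all measured genes, from -0.48 to 0.62. Its size depends on the normalization, with 0.21 in the authors' deposited table, 0.23 after quantile normalization and 0.31 with normexp correction. This difference was the largest among the 10 genes as reported, but under those 3 settings Igf2bp3 differed more, with -0.42, -0.40 and -0.41. The brighter probe of Lin28b also differed more in the authors' deposited table (-0.41) and after quantile normalization (-0.40). This probe and the second one are also annotated to transcripts of Hmga1b, a near copy of the gene on another chromosome, so their signal cannot be assigned to Hmga1 alone.

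The second Hmga1 probe, from 27696588 to 27696647, gave 2.13 ± 0.14 and 2.31 ± 0.14, a difference of 0.18 ± 0.20. The third, from 27693913 to 27693973, is annotated to Hmga1 alone and was the dimmest of the 18 against the negative controls. It read -2.95 ± 0.18 in clone 1 and -3.10 ± 0.19 in clone 2, a difference of -0.14 ± 0.26 in the opposite direction, and 0.30 with normexp correction. Of the 3 Hmga1 probes only the brightest differed by more than the software's error.

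Hmga2 was level between the clones by the probe that holds the let-7 site. That probe lies on the minus strand of chromosome 10 from 119798739 to 119798798 and read 2.49 ± 0.14 in clone 1 and 2.47 ± 0.14 in clone 2, a difference of -0.01 ± 0.20. The other probe, from 119800621 to 119800680, read 0.76 ± 0.14 and 0.55 ± 0.14, a difference of -0.21 ± 0.20. Neither difference was above 0 under any processing tried, and the lowest was -0.25.

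**Figure D2:**
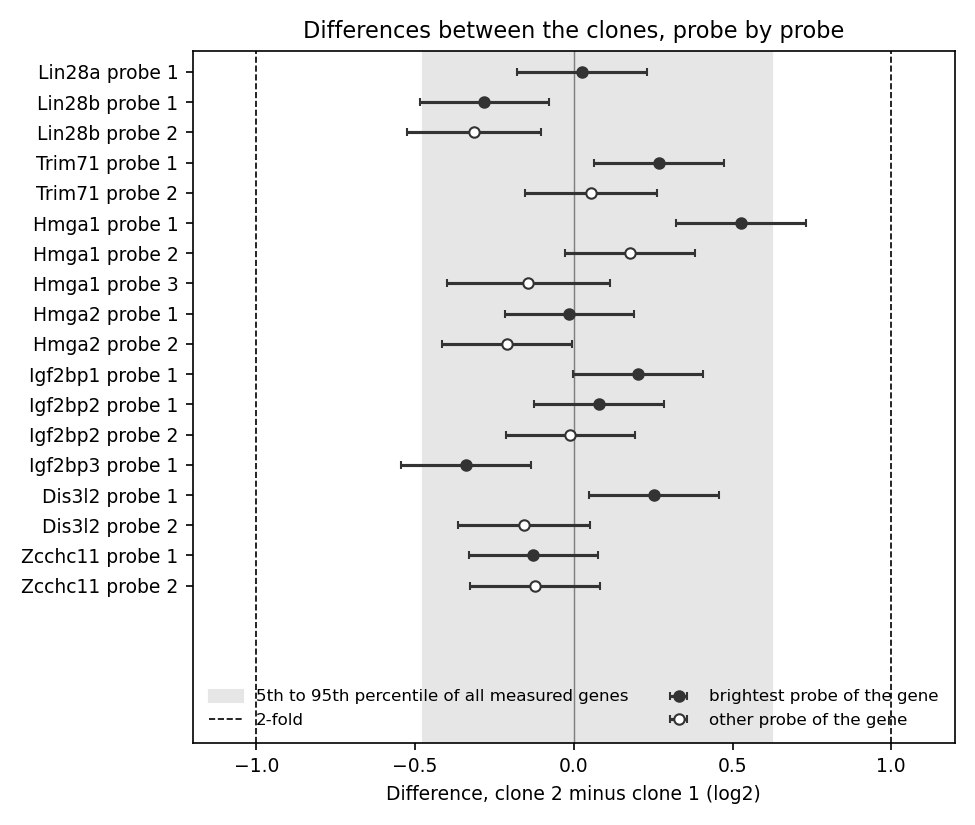
Difference between the clones (clone 2 minus clone 1, log2) for each of the 18 probes, with bars for the software's error of the difference, filled points for the brightest probe of a gene and open points for its other probes. All points lie inside the grey band from -0.48 to 0.62 that holds the 5th to 95th percentile of the 13928 measured genes, and none reaches the dashed 2-fold lines.

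The 3 Igf2bp genes encode RNA-binding proteins that stabilise and localise mRNAs, Igf2 and H19 RNA among them, and all 3 were detected. Igf2bp1 had 2.88 ± 0.14 in clone 1 and 3.08 ± 0.14 in clone 2 by its only probe (minus strand of chromosome 11, 95824526 to 95824585). Its difference of 0.20 ± 0.20 was -0.05 with normexp correction, so no direction is read.

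Igf2bp2 was level by both probes, which lie on the minus strand of chromosome 16. The first, from 22059260 to 22059319, read 1.54 ± 0.14 and 1.62 ± 0.14, a difference of 0.08 ± 0.20. The second, from 22059582 to 22059641, read 1.27 ± 0.14 and 1.26 ± 0.14, a difference of -0.01 ± 0.20.

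Igf2bp3 had the largest difference towards clone 1 among the 10 genes as reported, with Lin28b close to it. Its probe on the minus strand of chromosome 6, from 49035710 to 49035769, read 1.47 ± 0.14 in clone 1 and 1.13 ± 0.14 in clone 2. The difference of -0.34 ± 0.20, or 1.27-fold, lay between -0.42 and -0.33 over the ways of processing tried. It was 3.20 times the noise between single spots and 1.66 times the software's error, and there is no second probe to set beside it.

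Taking the probes by their position against the noise, 6 of the 18 exceeded 2 times the noise between single spots. These were both probes of Lin28b, the brightest probes of Trim71, Hmga1 and Dis3l2, and the Igf2bp3 probe. The share of all measured genes past this mark was not counted. The median size of a difference over all measured genes was 0.19, itself above the noise of 0.11, so these 6 probes are not read as standing out. Among the 7 genes with several probes, Lin28b, Trim71, Hmga2 and Zcchc11 had the same direction by every probe, while Hmga1, Igf2bp2 and Dis3l2 did not. With normexp correction the probes of Lin28b (-0.31 and 0.03) and Zcchc11 (-0.33 and 0.06) had opposite signs.

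Further genes of the pathway were taken from 6 lists with 54 genes, all of them named on the array. In both clones 51 were detected, against 61.3% of all genes on the array. Of these 51, 28 were higher in clone 2 and 23 in clone 1, next to a share of 56.9% of all measured genes on the clone 2 side. Their median was 0.04 and their median size 0.19, the latter as in all measured genes. Of the 51 genes only Khsrp was at least 2-fold apart, where 2.56% of all measured genes were, so the count is near that background. Khsrp binds the loop of let-7 precursors and promotes their maturation. It read 1.47 in clone 1 and 2.64 in clone 2, a difference of 1.16 by its brighter probe, but -0.46 by its other probe, and 0.35 over the mean of both. No direction is read for Khsrp.

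Of 15 genes of microRNA biogenesis and silencing, 14 were detected in both clones, with 6 higher in clone 2, 8 higher in clone 1 and a median of -0.07. Drosha, the nuclear nuclease, had a difference of -0.08 (0.59 by its other probe), its partner Dgcr8 had -0.19, and the export factor Xpo5 had 0.04 (-0.03 with the authors' deposited table and -0.14 with normexp correction). Ago3 did not pass the detection flag in any clone. The nuclease Dicer1, which cuts the precursor to the mature form and was singled out after its value was seen, read 1.52 in clone 1 and 0.72 in clone 2. Its difference of -0.80 lay between -0.87 and -0.74 under the alternatives, with only 1 probe.

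All 9 other let-7 processing and uridylation factors were detected in both clones, 6 higher in clone 2, with a median of 0.07. Zcchc6 (Tut7), which shares the uridylation activity of Zcchc11, had a difference of 0.07 and the terminal transferase Tut1 had -0.22. Zcchc6 turned to -0.02 with the authors' deposited table and Tut1 to 0.11 with normexp correction.

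All 16 other let-7 targets were detected in both clones, with 7 higher in clone 2, 9 higher in clone 1 and a median of -0.09 (0.02 with normexp correction). The growth regulators Myc and Mycn had -0.13 and 0.43. No common direction was seen among them.

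Of 7 mRNAs that Trim71 is known to repress, 6 were detected in both clones, and 5 of the 6 were higher in clone 2, with a median of 0.34. In all measured genes the share higher in clone 2 was 56.9% and the median 0.05. The median lay between 0.24 and 0.36 under the alternatives, and none of the 6 reached 2-fold. The cell cycle inhibitor Cdkn1a read 2.72 in clone 1 and 3.22 in clone 2, a difference of 0.50 that its other probe repeated with 0.53. The pocket protein Rbl1 had -0.43, but only -0.12 by its other probe, and its relative Rbl2 passed the detection flag in neither clone. Egr1, an immediate early transcription factor singled out after its value was seen, had 0.73.

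All 4 RNAs bound by Igf2bp proteins were detected in both clones. Igf2, a fetal growth factor, had a difference of -0.32, the imprinted RNA H19 had 0.11 and Actb, cytoplasmic actin, had 0.00. With normexp correction Igf2 had 0.03, and with the authors' deposited table H19 had -0.05 and Actb had -0.34, so no direction is read for them. Of the 4, 3 were higher in clone 2, but 1 with quantile normalization or the authors' deposited table. Among 3 hosts of let-7 microRNAs, Huwe1 had 0.19 and Wdr82 had -0.02. The third, 2610203C20Rik, passed the detection flag in clone 1 alone. The lower bound of its difference was 1.33-fold towards clone 1. That equals the measured difference of -0.41 ± 0.43, which lies inside the software's error, so no direction is read.

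**Figure D3:**
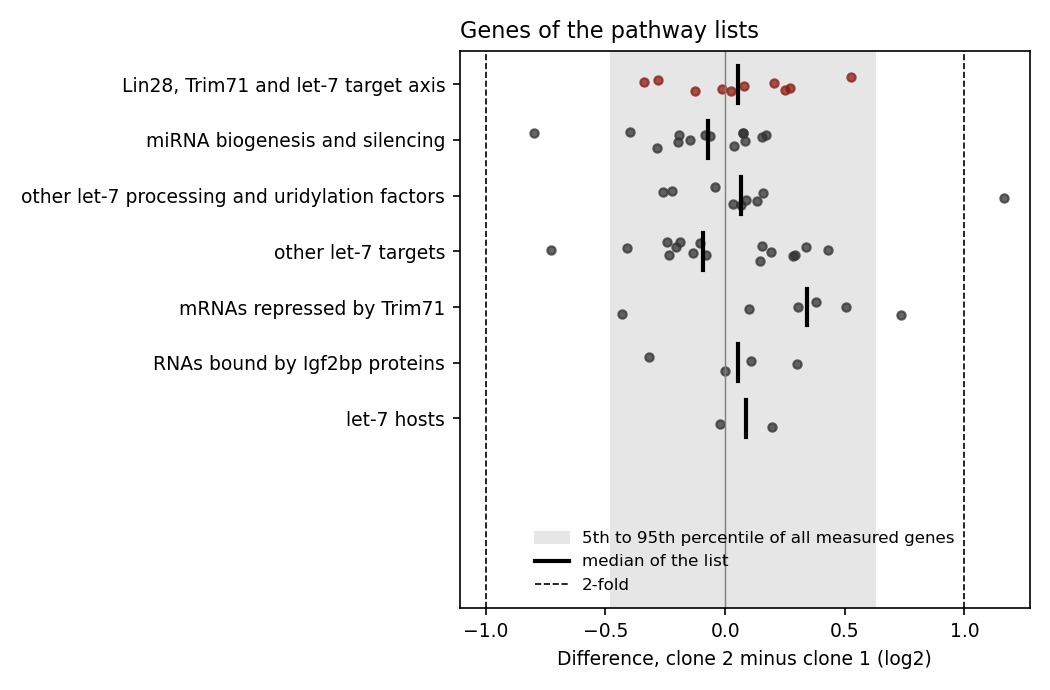
Differences between the clones (clone 2 minus clone 1, log2) for the detected genes of the Lin28, Trim71 and let-7 axis (red) and of the 6 pathway lists, 1 point per gene by its brightest probe, with the list's median as a bar. Most points lie in the grey band of the 5th to 95th percentile of all measured genes, and the point past the 2-fold line is Khsrp at 1.16.

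Several of these genes are not particular to pluripotent cells, and embryonic fibroblasts are known to express Hmga2 and Igf2bp genes. Markers of both were present in these RNA samples. All 8 epiblast markers were detected in both clones, with linear signals, in multiples of the 75th percentile signal, that sum to 193 for clone 1 and 212 for clone 2. All 14 fibroblast markers with a value were detected in both clones, with sums of 188 for clone 1 and 205 for clone 2, while Col1a1 had none because its spot carried an outlier flag. The sums of different lists come from different probes and are not compared. Before scaling to the 75th percentile the sums of the epiblast and the fibroblast markers were lower in clone 2, so no direction is read from them. Of the neural markers 3 of 4 were detected in both clones and Pax6 in neither. None of 5 endoderm markers was detected in both clones, with Gata6 passing in clone 2 alone and Sox17, Foxa2, Afp and Ttr in neither. Of 5 blood and immune markers 3 were detected in both clones, while Ptprc passed in clone 1 alone and Cd68 in clone 2 alone. The median difference was 0.07 for the epiblast markers and 0.12 for the fibroblast markers. With quantile normalization, the authors' deposited table and normexp correction the epiblast median turned to -0.07, -0.10 and -0.06. No direction is read for the epiblast markers. The fibroblast median fell to 0.05, 0.05 and 0.01 under these settings. For the 3 blood and immune markers the median difference was 0.83, with the T cell gene Cd3e at 2.45, the macrophage gene Csf1r at 0.83 and Lyz2 at -0.24. Another Csf1r probe detected in both clones had only 0.09. With the probes of each gene averaged, the median of these markers was 0.46. Ptprc and Cd68 had -0.65 ± 0.43 and 0.53 ± 0.44, in opposite directions. No direction is read for the blood and immune markers. By their brightest probes the 3 neural markers had a median of -0.32 and were all higher in clone 1. Sox1, which set that median, had 0.15 by its other probe. The median was -0.14 with the probes of each gene averaged and 0.10 with normexp correction, so no direction is read. What part such cells had in the signals of the 10 genes was not tested, and fewer cells of a type and less RNA per cell cannot be told apart in such samples.

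**Figure D4:**
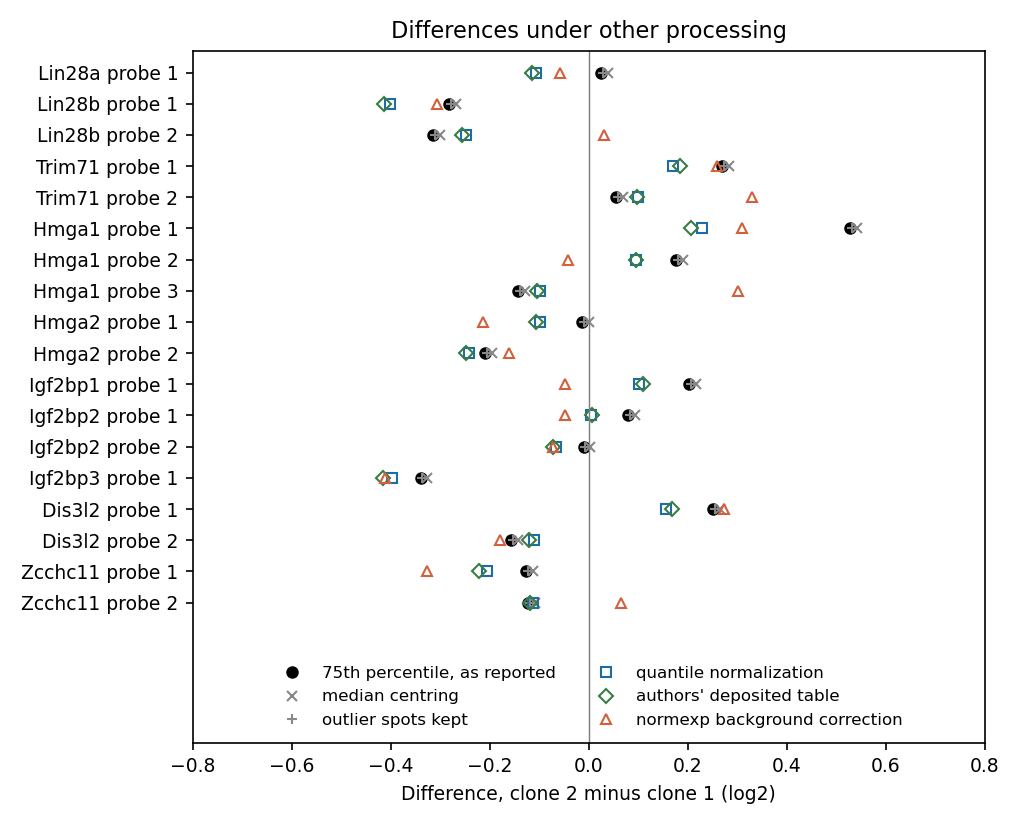
Differences between the clones (clone 2 minus clone 1, log2) for the 18 probes as reported (black) and under 5 other ways of processing. The values for probe 1 of Hmga1 spread from 0.21 to 0.54, and no probe exceeds 0.54 in size under any of them.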

How the data were processed

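Both arrays are 1-colour Agilent arrays (design 026655) scanned and quantified in Feature Extraction 11.0.1.1 (protocol GE1_1100_Jul11), with probe positions on mm9, per the file headers. The deposited spot intensities had been corrected by the software for background and spatial trends and were not normalized between arrays, per the file headers. Flags for detection, saturation and outliers came with them. The authors' deposited table is an intensity on a linear scale, with medians of 65.8 for each clone. Its normalization is not given in the sources used, and it served as an alternative. Its log2 values correlated at 0.999 and 1.00 with the processed signals across probes of clone 1 and clone 2.

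From 44397 spots per array, controls and 277 (clone 1) and 246 (clone 2) spots with an outlier flag were left out, which left 39272 probes with a value on both arrays. Log2 signals of repeated spots were averaged per probe and centred on the 75th percentile (signals of 819 and 726). Detection of a probe needed the well-above-background flag on 50% or more of its spots. The median of 153 negative controls was 7.96 and 7.13. Probes were named through RefSeq genes (GRCm38.p6, names only), with 26055 matched by accession, 3195 by current symbol, 930 by former symbol and 9249 unmatched. The probe with the highest mean signal stands for a gene. A gene detected on 1 array has a lower bound, against the higher of its own dim value and the lowest detected level of that array.

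The members and lists were chosen with earlier results of these data known. All 10 members are named, and from each list the first 3 genes, those at least 2-fold apart and those detected on 1 array. A gene that this rule takes is not reported here. Computations used Python 3.11.15 and limma 3.58.1 (normexp with an offset of 50), and the processing was tested on simulated data. No test between clones was made. The number of arrays limits the precision.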

Additional observations from a re-analysis of the deposited data

How the results depend on the processing

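All 10 genes were detected on both arrays with the positive and significant flag (80.0% of all genes), against the negative controls (53.6%) and with outlier spots kept. None was 2-fold apart under any of the 7 alternatives for the difference. Their median difference lay between -0.05 (with the authors' deposited table, quantile normalization or normexp correction) and 0.07 (median centring), so no direction is read. Of 90 probe values under alternatives, 74 moved by less than the noise between spots and 16 by more, and 8 of the 18 probes changed sign under some alternative. The cause was not tested. No paired analysis was possible because each clone has 1 array. The third probe of Hmga1, the dimmest of the 18, had the largest software error of a difference (0.26).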
